A study of Drosophila melanogaster with 10 samples.

Results

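The genes described here are those of the egg: yolk proteins, the proteins of the eggshell, and genes that act in the female germline. A gene was included where a probe set of the array is annotated with that gene alone, by symbol or synonym, and where a gene had several such probe sets the one with the highest mean signal over the 10 arrays was used. The list holds 40 names for 39 genes, as nos and nanos are the same gene, and 36 of the 39 were measured, among 10844 genes named on the array. Of these, 16 encode yolk or eggshell proteins and 20 act in the germline. Vm26Ab, Cp7Fa and Cp7Fb have no probe set annotated with them alone and are named only.

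In the fly ovary, each egg chamber holds germ cells, which become nurse cells and an oocyte, inside a layer of somatic follicle cells. Yolk proteins are made by the fat body and the follicle cells and are taken up by the oocyte, and late in oogenesis the follicle cells secrete first the vitelline membrane and then the chorion around it. The nurse cells load the oocyte with maternal mRNAs, some of which are localized to fix the axes of the embryo and to found its germ cells. The adult Malpighian tubule, the renal organ of the fly, makes neither eggs nor eggshell.

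Total RNA was hybridized to the Affymetrix Drosophila genome array from Malpighian tubules (5 arrays) and from whole flies (5 arrays), all of the Oregon R strain, 7 days old and of mixed sexes, with no treatment in either group. Tubules were cut from the gut and pooled from many animals per batch, and whole flies of the same culture were homogenized in pools, so that a tubule array and a whole fly array of the same number (2 to 6) form a matched pair. Males contribute to both groups, and several of the germline genes are also active in the testis. The values are MAS 5.0 signal intensities, a linear measure of probe set brightness that is compared here mainly between arrays for the same gene. With caution, the study also took it as an estimate of expression levels between genes. Sums of signals over several genes, as given below, are weighted towards the brightest of them.

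All 10 measured Malpighian tubule markers were higher in tubule, where 16.8% of all probe sets were called higher (limma, adjusted p under 0.05). Most of the 10 were reported as enriched by the study from these same arrays, so their direction was known beforehand. Their summed signal was 45758 to 52042 in the tubule arrays and 11054 to 14737 in the whole fly arrays. Markers of other tissues were present in the tubule arrays at levels that differed widely between them. Midgut digestive enzyme genes summed to 3141.1 to 40519 in tubule and 70948 to 91569 in whole flies (32 genes), and male accessory gland and ejaculatory genes to 198.4 to 7039.9 in tubule and 14019 to 21920 in whole flies (15 genes). Whole fly array 2 stood apart from the other 4 for many of the egg genes, as described below with its values.

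The egg genes were far lower in tubule than in whole flies. Of the 36 genes, 34 were lower in tubule, 1 (tud) was higher and 1 (BicD) was not called (limma, adjusted p under 0.05), where 36.3% of all probe sets were called lower and 16.8% higher. In each of those 34 every tubule array lay below every whole fly array, a separation that 29.6% of all probe sets showed. A call with a difference of at least 10-fold was made for 28 of the 36, against 5.84% of all probe sets. That count rests in part on low tubule signals: it was 14, against 0.702% of all probe sets, with signals under 50 set to 50, and 19, against 1.11%, with 16 added to each signal. The median log2 fold change of tubule over whole fly was -4.50 for the 36 genes and -0.32 for all probe sets tested, and the largest adjusted p among the 34 was 0.0048. In such bulk samples, fewer cells of a type and less RNA per cell cannot be told apart.

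**Figure D1:**
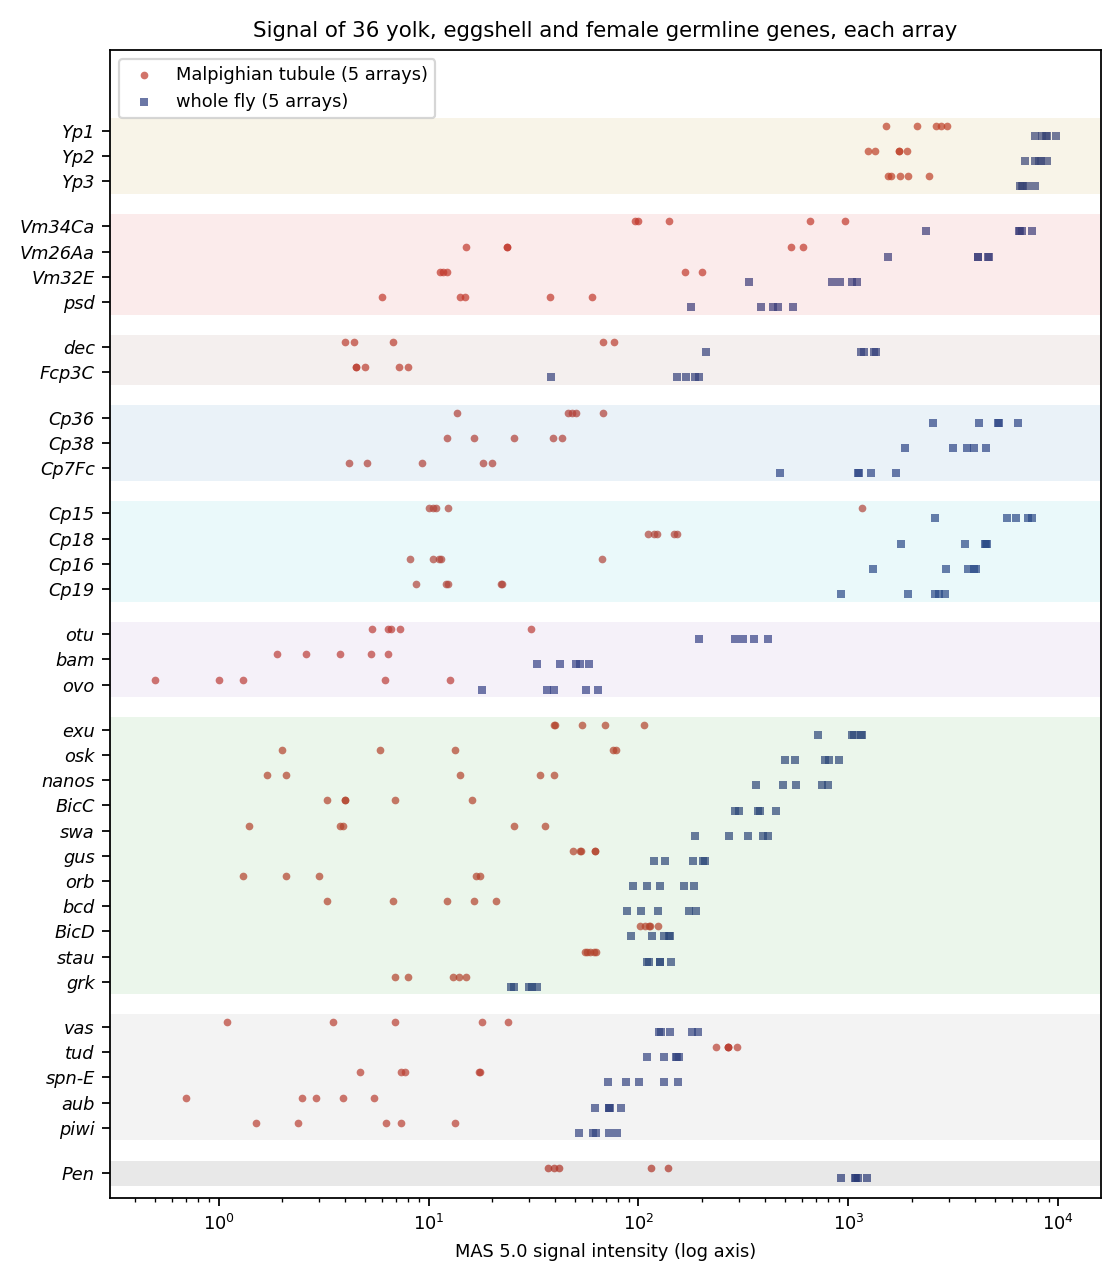
Signal of each of the 36 genes on a log axis, with 5 tubule arrays (circles) above 5 whole fly arrays (squares) in each row and genes grouped by role. In 34 genes all circles lie left of all squares; in tud they lie right of them, and in BicD they overlap.

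Yolk and eggshell genes as a class lay below germline genes in most pairs. All 16 yolk and eggshell genes were lower in tubule, with a median log2 fold change of -5.16, and 18 of the 20 germline genes were, with a median of -4.12. Within the pairs, the yolk and eggshell median of the log2 ratio of tubule to whole fly minus that of the germline genes was 0.49 in pair 2, -1.80 in pair 3, -1.79 in pair 4, -0.78 in pair 5 and -2.08 in pair 6. The difference was thus negative in 4 of 5 pairs, with a mean of -1.19 ± 1.06 (SD, n = 5 pairs), and carries no test because the classes consist of different genes. The classes also differ in signal, with a median whole fly mean of 3613.1 for yolk and eggshell genes and 138.0 for germline genes. A dim gene has less room to fall before its tubule signal nears background. Over the 36 genes, whole fly mean and log2 fold change had a Spearman correlation of -0.40. Whole fly signal is also the denominator of the fold change, so a negative correlation is partly built in. How far the class difference follows from signal level was not tested. By role, the median log2 fold change was -1.93 for the 3 yolk protein genes, -4.48 for the 4 vitelline membrane genes, -5.21 for the 2 other follicle cell genes, -6.81 for the 3 chorion genes of the X chromosome and -7.38 for the 4 chorion genes of the third chromosome. Among germline roles the medians were closer together, at -4.16 for the 3 genes of germ cell differentiation, -4.13 for the 11 genes of mRNA localization and axis formation, and -3.79 for the 5 genes of the germ plasm and the piRNA pathway.

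**Figure D2:**
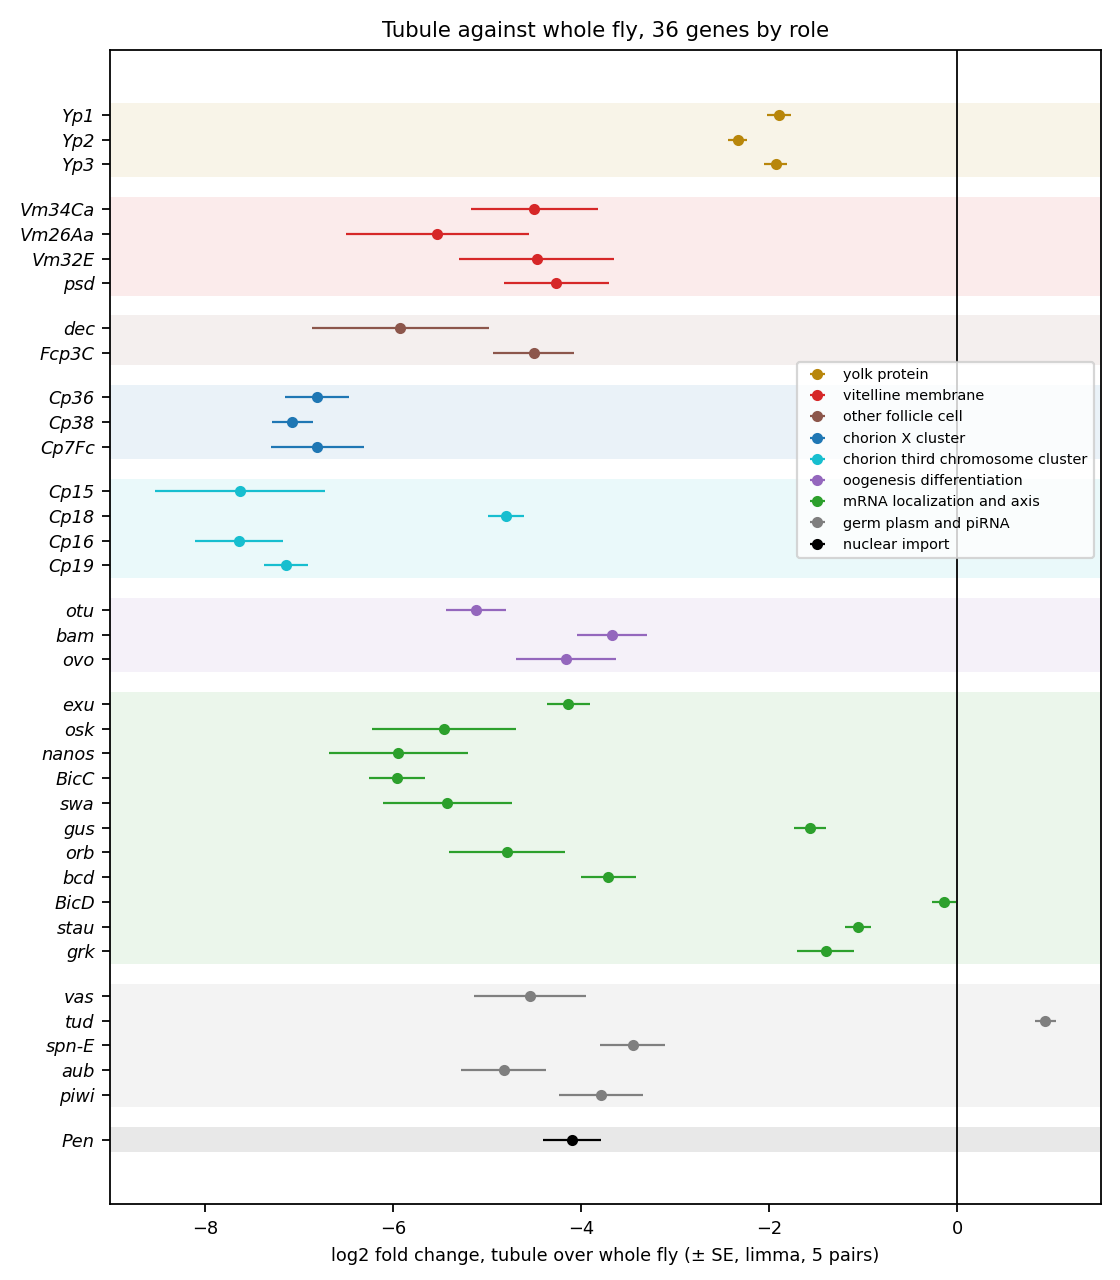
Log2 fold change of tubule over whole fly (limma, 5 pairs) for each gene, with bars of 1 SE, coloured by role. Yolk protein genes lie near -2, most chorion genes near -7, and tud alone lies right of 0.

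The yolk protein genes differed less than the other genes of the eggshell and yolk class, except that with signals under 50 set to 50 Fcp3C, a follicle cell gene, was at -1.44 on the log2 scale. Yp1, which encodes a yolk protein taken up by the oocyte, had signals of 1510.5, 2766.3, 2952.4, 2619.2 and 2110.1 in tubule arrays 2 to 6, against 7771.7, 9718.2, 8314.9, 8787.0 and 8711.6 in the whole fly arrays. No tubule array came near a whole fly array, and the coefficient of variation was 24.4% over the tubule arrays and 8.26% over the whole fly arrays. The tubule to whole fly ratio was 0.275 ± 0.0604 for Yp1 (SD, n = 5 pairs), with a log2 fold change of -1.89 ± 0.13 (SE, limma, adjusted p = 9.6e-06). Yp2 had a log2 fold change of -2.33 ± 0.10 (adjusted p = 8.6e-07) and Yp3 of -1.93 ± 0.12 (adjusted p = 5.5e-06), both SE from limma. Tubule signals for the 3 genes, all on the X chromosome, were 16.6% to 36.8% of the paired whole fly signal. Summed signals of fat body and haemolymph markers (9 genes, of which 7 were lower in tubule) were 1470.7 to 2027.6 in tubule and 6939.6 to 10768 in whole flies; their part in the yolk protein signal of the tubule arrays was not tested.

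The vitelline membrane genes encode the proteins of the inner eggshell layer. Vm34Ca, a structural vitelline membrane protein gene, had 959.6, 99.9, 96.6, 653.9 and 139.5 in tubule arrays 2 to 6, against 2344.7, 7456.6, 6540.4, 6680.9 and 6457.0 in the whole fly arrays. Vm26Aa, another structural protein gene of the same layer, had 610.9, 23.6, 15.0, 535.1 and 23.7 in tubule, against 1541.9, 4632.9, 4129.0, 4671.6 and 4149.4 in whole flies. In both genes tubule arrays 2 and 5 were high, whole fly array 2 was low, and the groups still did not overlap. The log2 fold change was -4.50 ± 0.67 for Vm34Ca (adjusted p = 7.0e-04) and -5.53 ± 0.97 for Vm26Aa (adjusted p = 0.0016) (SE, limma). Vm32E, a further structural gene, followed the same course, with 201.4, 11.3, 12.2, 166.3 and 11.7 in tubule and 337.2, 1037.3, 833.9, 1098.6 and 907.6 in whole flies (log2 fold change -4.47 ± 0.82 SE, limma, adjusted p = 0.0021). psd, needed to form the vitelline membrane, had a log2 fold change of -4.26 ± 0.56 (SE, limma, adjusted p = 3.4e-04). All 4 genes lie on the left arm of the second chromosome.

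Both other follicle cell genes were also lower in tubule. dec (dec-1), whose protein is secreted by the follicle cells and cleaved during eggshell assembly, had 76.6, 4.4, 4.0, 67.9 and 6.8 in tubule arrays 2 to 6, against 210.2, 1358.8, 1179.7, 1318.3 and 1149.4 in the whole fly arrays. Tubule arrays 2 and 5 were again high and whole fly array 2 again low, and the groups did not overlap. Its log2 fold change was -5.92 ± 0.94 (SE, limma, adjusted p = 9.7e-04). Fcp3C, a follicle cell protein gene, had 7.2, 8.0, 4.5, 5.0 and 4.5 in tubule, against 38.3, 193.5, 151.9, 167.7 and 186.8 in whole flies. In Fcp3C the low whole fly array 2 was shared with dec, but no tubule array stood out, and the log2 fold change was -4.51 ± 0.43 (SE, limma, adjusted p = 6.6e-05).

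The chorion genes, which encode the outer eggshell and lie in a cluster on the X chromosome and another on the third, had log2 fold changes below -6.8 in 6 of 7 cases, with Cp18 the exception. Cp36, a major early chorion protein gene of the X cluster, had 46.3, 67.7, 48.1, 13.6 and 50.4 in tubule arrays 2 to 6, against 2521.2, 6386.6, 4201.7, 5221.5 and 5129.4 in the whole fly arrays. The tubule arrays were within a narrow range apart from the low array 5, and the log2 fold change was -6.81 ± 0.34 (SE, limma, adjusted p = 1.8e-06). Cp38, the other major gene of the X cluster, was at -7.07 ± 0.22 (adjusted p = 1.6e-07), and Cp7Fc, a further gene of the cluster, at -6.81 ± 0.50 (adjusted p = 1.5e-05; SE, limma).

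On the third chromosome Cp15, a late chorion protein gene, had 10.5, 10.1, 10.8, 1159.2 and 12.4 in tubule arrays 2 to 6, against 2594.6, 6290.0, 5701.0, 7133.9 and 7475.8 in the whole fly arrays. Tubule array 5 alone was high, at 16.2% of its paired whole fly signal, where the other pairs had 0.161% to 0.405%, and it too lay below every whole fly array. The log2 fold change of Cp15 was -7.63 ± 0.90 (SE, limma, adjusted p = 1.9e-04). Cp16, a further chorion protein gene of this cluster, had 11.2, 10.5, 67.2, 8.2 and 11.5 in tubule, against 1315.6, 3730.3, 2907.9, 3966.6 and 4067.0 in whole flies, with tubule array 4 the high one. Its log2 fold change was -7.63 ± 0.47 (SE, limma, adjusted p = 5.5e-06), which differed from that of Cp15 by far less than either SE. Both were the lowest of the 36 genes as deposited, but with signals under 50 set to 50 Cp36 was the lowest, at -6.40, against -5.81 for Cp16. Cp19, a chorion protein gene of the same cluster, was at -7.14 ± 0.24 (SE, limma, adjusted p = 2.4e-07). Cp18, a major chorion protein gene, had the smallest change of the cluster, with 122.3, 147.9, 118.4, 153.1 and 110.4 in tubule, against 1784.4, 4570.4, 3606.1, 4464.5 and 4539.5 in whole flies. Its tubule signals were even across the arrays, and its log2 fold change was -4.79 ± 0.19 (SE, limma, adjusted p = 5.9e-07). How far such a low tubule signal is RNA and how far background of the probe set was not tested.

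In the germline class, the genes of germ cell differentiation were all lower in tubule. otu (ovarian tumour), needed for the growth and differentiation of female germ cells, had 7.3, 6.6, 5.4, 30.6 and 6.4 in tubule arrays 2 to 6, against 193.4, 315.7, 288.0, 414.4 and 353.3 in the whole fly arrays. Tubule array 5 was high and whole fly array 2 lowest, with no overlap, and the log2 fold change was -5.12 ± 0.32 (SE, limma, adjusted p = 5.8e-06). bam, which acts in germ cell differentiation in both sexes, was at -3.67 ± 0.37 (SE, limma, adjusted p = 8.0e-05). ovo, a zinc finger transcription factor gene of the female germline, was at -4.16 ± 0.53 by the probe set with the higher mean (SE, limma, adjusted p = 2.9e-04). The other ovo probe set was at 0.88 ± 0.54 and was not called (SE, limma, adjusted p = 0.20), so the direction for ovo rests on the choice of probe set. bam and ovo had whole fly signals of 18.0 to 64.1 and tubule signals of 0.5 to 12.7, in the range where the size of a ratio is uncertain.

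Of the 11 genes of mRNA localization and axis formation, 10 were lower in tubule. exu, which directs bcd mRNA to the anterior of the oocyte, had 69.5, 40.2, 53.8, 106.3 and 39.8 in tubule arrays 2 to 6, against 717.4, 1041.7, 1160.1, 1148.9 and 1066.9 in the whole fly arrays. The whole fly arrays were even except for a low array 2, and the log2 fold change was -4.13 ± 0.23 (SE, limma, adjusted p = 3.3e-06). BicC, an RNA-binding regulator of oocyte patterning, had 6.9, 4.0, 3.3, 16.1 and 4.0 in tubule, against 300.6, 370.0, 288.6, 449.5 and 378.3 in whole flies. No array came between the groups, and BicC was at -5.96 ± 0.30 (SE, limma, adjusted p = 1.8e-06), the lowest of the germline class as deposited. The rank was lost with signals under 50 set to 50, where BicC was at -2.82 and exu at -4.01.

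osk, whose product assembles the germ plasm at the posterior pole, had 75.9, 2.0, 5.9, 78.5 and 13.4 in tubule, against 496.5, 772.8, 557.3, 810.6 and 897.2 in whole flies. Tubule arrays 2 and 5 were high, as in the vitelline membrane genes, and the log2 fold change of osk was -5.46 ± 0.77 (SE, limma, adjusted p = 5.0e-04). The posterior determinant nanos was at -5.94 ± 0.73 (adjusted p = 2.5e-04), and swa, needed to hold bcd mRNA at the anterior, at -5.42 ± 0.68 (adjusted p = 2.8e-04; SE, limma). orb, a regulator of the translation of localized mRNAs, was at -4.79 ± 0.62 (adjusted p = 3.1e-04), and bcd, the anterior morphogen, at -3.71 ± 0.29 (adjusted p = 2.3e-05; SE, limma). The second probe sets of nanos, orb and swa were lower in tubule too, with log2 fold changes of -4.12, -4.11 and -2.77 (limma).

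The remaining genes of this role had smaller log2 fold changes. grk, the growth factor-like ligand that signals from oocyte to follicle cells, was at -1.40 ± 0.30 (SE, limma, adjusted p = 0.0048), with all signals low, 6.9 to 15.1 in tubule and 24.6 to 33.0 in whole flies. gus, whose protein binds Vasa and is needed for its localization, was at -1.57 ± 0.17 (adjusted p = 1.4e-04), and stau, a double-stranded RNA-binding protein gene used in osk and bcd localization and in neural precursors, at -1.06 ± 0.14 (adjusted p = 3.3e-04; SE, limma). Their probe sets carry a suffix that marks possible cross-hybridization, so these signals may not be of gus or stau alone. A second stau probe set was at -0.71 (limma, adjusted p = 0.0069), and a second gus probe set at -0.24, which was not called (limma, adjusted p = 0.45).

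BicD, an adaptor that links cargo to the dynein motor in many cell types, had 101.3, 112.6, 107.3, 113.3 and 124.3 in tubule arrays 2 to 6, against 92.4, 132.7, 115.4, 139.4 and 141.8 in the whole fly arrays. The groups overlapped, tubule was the lower in 4 of 5 pairs, and pair 2, with the low whole fly array 2, was the exception. The log2 fold change of BicD was -0.14 ± 0.12 (SE, limma, adjusted p = 0.38), and its sign depended on the scaling of the arrays.

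The genes of the germ plasm and the piRNA pathway, which silences transposons in germ cells, were lower in tubule with the exception of tud. vas, a germline RNA helicase gene, was at -4.54 ± 0.59 (adjusted p = 3.3e-04), and spn-E, a helicase gene of the piRNA pathway, at -3.45 ± 0.35 (adjusted p = 8.0e-05; SE, limma). aub and piwi, which encode the Argonaute proteins that carry piRNAs, were at -4.82 ± 0.45 (adjusted p = 5.8e-05) and -3.79 ± 0.45 (adjusted p = 1.9e-04; SE, limma). Signals of these 4 genes were 0.7 to 24.0 in tubule and 52.2 to 192.8 in whole flies.

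tud, whose Tudor-domain protein is needed to form the germ plasm and the germ cells, was the only gene of the 36 that was higher in tubule. It had 234.8, 267.8, 266.5, 267.1 and 295.5 in tubule arrays 2 to 6, against 109.3, 153.2, 155.3, 151.1 and 132.3 in the whole fly arrays. Every tubule array lay above every whole fly array, and tubule arrays 2 and 5 did not stand out. The tubule to whole fly ratio was 1.92 ± 0.247 (SD, n = 5 pairs) and the log2 fold change 0.93 ± 0.11 (SE, limma, adjusted p = 2.2e-04). tud was also called higher under quantile normalization and with the ribosomal protein gene RpL32 held constant.

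Pen (oho31), an importin alpha gene of the nuclear import machinery that is needed in the germline, had 115.1, 41.9, 37.2, 138.6 and 39.5 in tubule, against 917.9, 1071.0, 1087.5, 1220.7 and 1104.6 in whole flies. Tubule arrays 2 and 5 were high in Pen as well. Its log2 fold change was -4.10 ± 0.31 (SE, limma, adjusted p = 1.8e-05).

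Among the whole fly arrays, array 2 was low for most of the 36 genes, and lower for the 13 eggshell genes than for the yolk protein genes and the germline genes other than ovo. It was the lowest of the 5 in 30 of the 36 genes, where 31.4% of all probe sets had their lowest whole fly signal there. It was at or under 1/2 of the lowest other whole fly array in 12 of the 36, against 2.48% of all probe sets: 11 of the 16 yolk and eggshell genes and 1 of the 20 germline genes (ovo). Where the whole fly mean was 50 or more, the count was 11 of 33 genes, against 0.923% of all such probe sets, and array 2 was the lowest in 35.9% of them. In 8 of the 33 it lay below the rest by more than the limit of Dixon's outlier test, which 2.15% of all such probe sets passed in the same way. The log2 signal of array 2 minus the mean of the other 4 had a median of -1.39 over the yolk and eggshell genes, -0.55 over the germline genes and -0.10 over all probe sets whose whole fly mean was 50 or more.

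**Figure D3:**
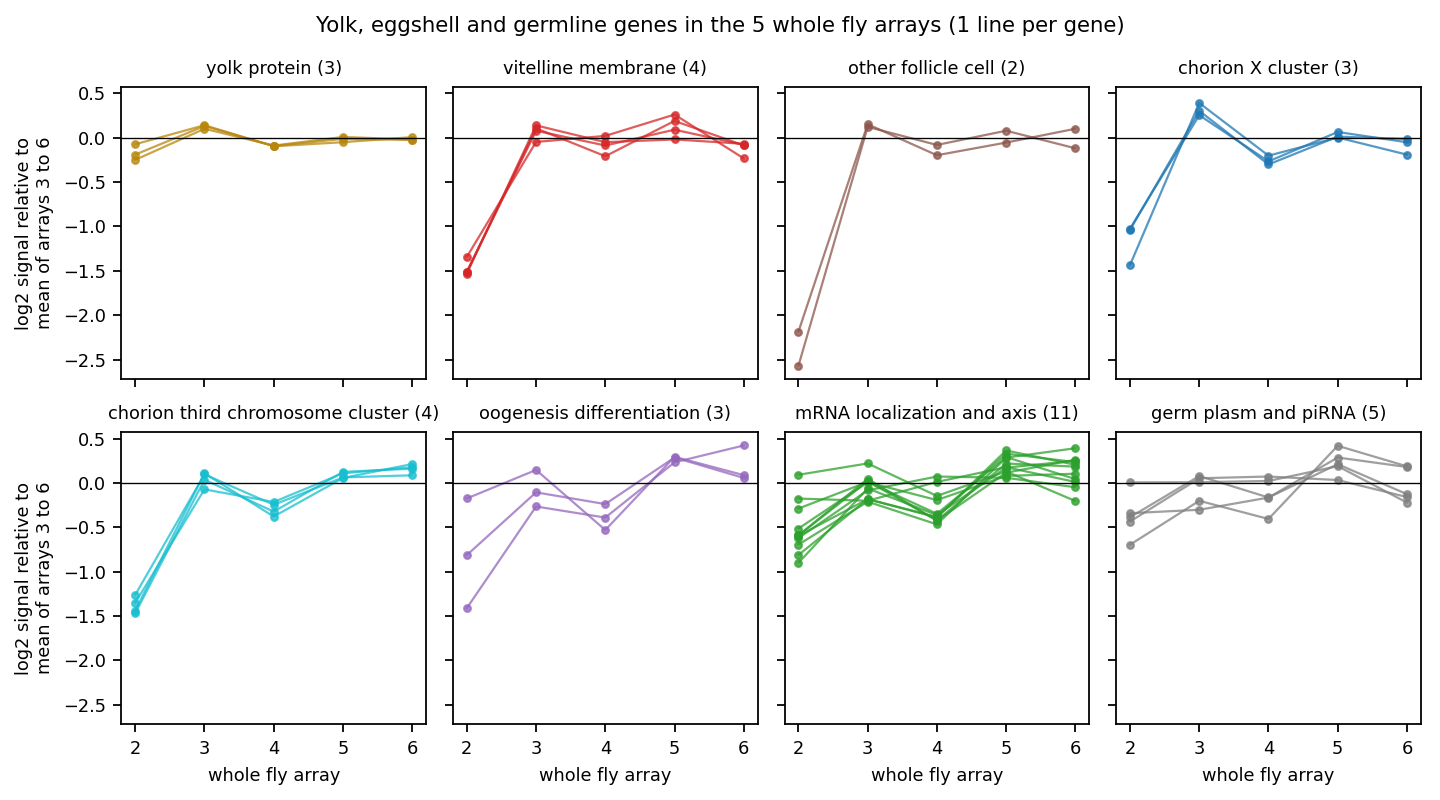
Log2 signal of each gene in the 5 whole fly arrays relative to its mean over arrays 3 to 6, 1 line per gene and a panel per role (Pen, the only gene of nuclear import, not drawn). Array 2 lies near 0 for the yolk protein genes, at -1.02 or below for the chorion and vitelline membrane genes and below -2 for dec and Fcp3C.

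The eggshell genes did not all share this to the same extent. The deviation of whole fly array 2 was -2.57 for dec and -2.19 for Fcp3C, between -1.53 and -1.34 for the 4 vitelline membrane genes and between -1.47 and -1.02 for the 7 chorion genes. In the yolk protein genes it was between -0.25 and -0.07, so that dec was 5.95 times as high in the mean of the other 4 arrays as in array 2 while Yp1 was 1.14 times as high. In the germline class the range was from -1.41 in ovo to 0.09 in grk, with aub at 0.01.

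The other list of eggshell and yolk uptake genes, which holds none of the 36, had a median deviation of -0.55 in whole fly array 2 (12 genes, 2 of them at or under 1/2 of the lowest other whole fly array). That median is close to the -0.55 of the 20 germline genes and of 48 other ovary and germline genes. It is not close to the -1.39 of the yolk and eggshell genes among the 36. The list is mixed, and array 2 was the lowest in 8 of the 12. Vm26Ac, a vitelline membrane gene, had 11.8 there against 65.1 to 81.2 in the other whole fly arrays, and Femcoat 41.9 against 79.7 to 127.1. In tsl array 2 was the highest, at 64.4 against 44.5 to 60.2. Whole fly signals of pip and gd were at most 18.8. These genes were named after their values were seen. Markers of other tissues moved in whole fly array 2 as well. Its median deviation was -0.57 for testis and sperm markers (23 genes, 14 of them lowest in array 2) and -0.54 for accessory gland and ejaculatory markers (15 genes, 13 lowest). Midgut digestive enzyme genes were at -0.07 (32 genes), Malpighian tubule markers at 0.29 (10 genes) and fat body and haemolymph markers at 0.46 (9 genes, 1 lowest). The part of these other tissues in the low egg gene signals of array 2 was not tested. Without pair 2, the same number of genes, 34, was called lower in tubule, and the median log2 fold change of the yolk and eggshell genes was -5.99.

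Among the tubule arrays, numbers 2 and 5 carried the highest signals of many egg genes. Both lay above the other 3 tubule arrays in 18 of the 36 genes, where 10.7% of all probe sets showed this pattern. They did so by at least 2-fold in 12 genes, against 1.2% of all probe sets, and with a whole fly mean of 50 or more the shares over all probe sets were 12.2% and 1.39%. The 12 are the 4 vitelline membrane genes, dec, osk, nanos, orb, swa, vas, spn-E and Pen. None of the 3 yolk protein genes and 1 of the 7 chorion genes (Cp7Fc) had both arrays above the other 3.

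**Figure D4:**
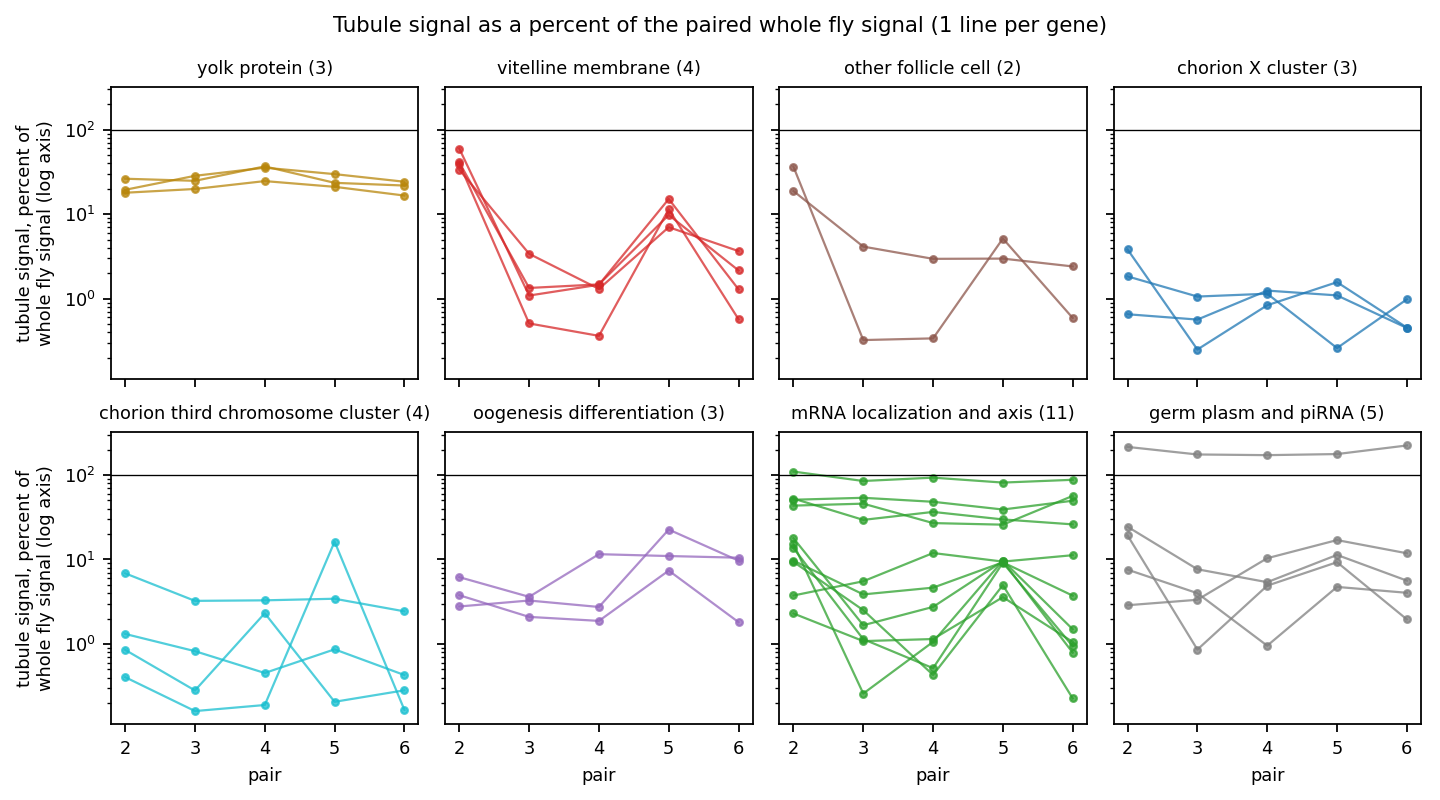
Tubule signal as a percent of the whole fly signal of the same pair, on a log axis, with 1 line per gene and a panel per role; the line at 100 marks equal signals. Vitelline membrane genes reach 33.6% to 59.7% in pair 2 and stay at or under 3.66% in pairs 3, 4 and 6, whereas yolk protein genes stay between 16.6% and 36.8% in every pair.

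As a percent of the paired whole fly signal, the vitelline membrane genes in tubule stood at 33.6% to 59.7% in pair 2 and 7.02% to 15.1% in pair 5, and at 0.363% to 3.66% in pairs 3, 4 and 6. The high values of pair 2 combine a high tubule array with the low whole fly array 2. dec had 36.4% in pair 2 and 5.15% in pair 5, against at most 0.592% in the other pairs. Of the chorion genes, Cp7Fc also had its highest values in pairs 2 and 5, at 3.82% and 1.57%, against 0.250% to 0.836% in the other pairs. Apart from Cp15 in pair 5 and Cp18 in pair 2, at 6.85%, the chorion genes stayed between 0.161% and 3.82% in all pairs. Leaving out pairs 2 and 5 together, a choice made after these signals were seen, gave the same 34 and 1 calls and a median log2 fold change of -6.43 for the yolk and eggshell genes.

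**Figure D5:**
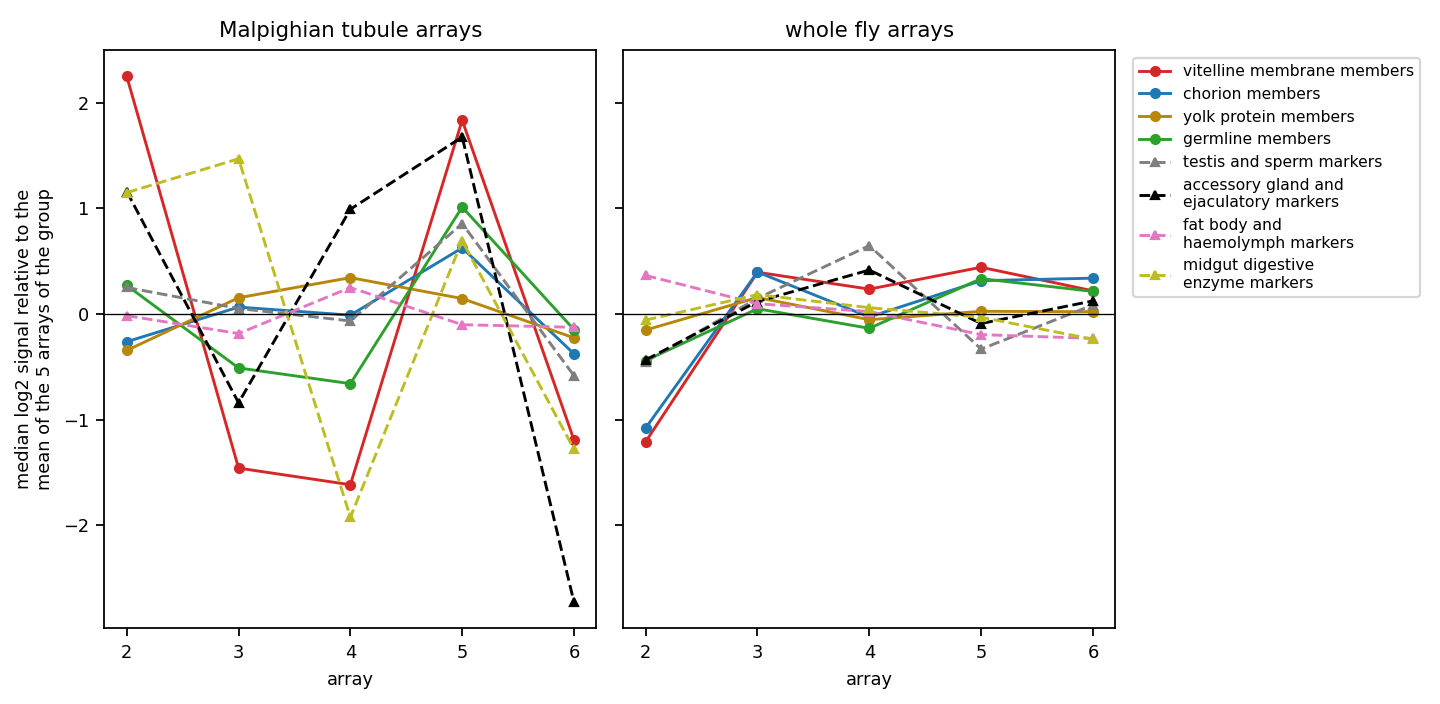
Median log2 signal of groups of egg genes (circles) and of marker lists of other tissues (triangles) in each array, relative to the mean of the 5 arrays of the same group, for tubule (left) and whole fly (right). The vitelline membrane median is 2.25 and 1.83 in tubule arrays 2 and 5 and -1.21 in whole fly array 2.

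Relative to the mean of the 5 tubule arrays, the median log2 signal of the vitelline membrane genes was 2.25 in array 2, -1.46 in array 3, -1.62 in array 4, 1.83 in array 5 and -1.19 in array 6. That of the yolk protein genes stayed between -0.35 and 0.34. Other tissues also varied, each in its own order. Accessory gland and ejaculatory markers were at 1.16 and 1.68 in arrays 2 and 5, but also at 0.99 in array 4 and at -2.73 in array 6. Testis and sperm markers (16 of 23 lower in tubule, summed signals of 663.2 to 2554.0 in tubule and 6925.3 to 15897 in whole flies) were at 0.25 in array 2 and 0.86 in array 5. Midgut digestive enzyme genes were highest in array 3, at 1.47. Tubule arrays 2 and 5 both lay above the other 3 in 11 of the 23 testis markers, in 6 of the 15 accessory gland markers and in 1 of the 32 midgut genes. The part of these other tissues in the egg gene signals of the tubule arrays was not tested.

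Further genes of the same processes were taken from lists of eggshell and yolk uptake genes and of ovary and germline genes that hold none of the 36. Of 12 measured eggshell and yolk uptake genes (17 listed), 9 were lower in tubule, 0 higher and 3 not called, with a median log2 fold change of -3.17 (limma), where 36.3% of all probe sets were called lower and 16.8% higher. Of 48 measured ovary and germline genes (57 listed), 38 were lower, 1 higher and 9 not called, with a median of -2.11 (limma). Of the genes in both lists whose mean signal reached 50, dhd, a germline thioredoxin gene (-6.04 ± 0.97), hts, an adducin gene needed for the fusome (-5.81 ± 0.43), CycB3, a B-type cyclin gene (-5.43 ± 0.58), and Ote, a nuclear lamina protein gene (-5.09 ± 0.34), had the lowest log2 fold changes (SE, limma). In dhd tubule arrays 2 and 5 were at 240.3 and 264.4 and the other 3 at 1.4 to 29.8. Tubule signals were 1.2 to 3.8 in hts, 2.1 to 10.6 in Ote and 2.5 to 61.2 in CycB3. Their whole fly means were 138.2, 148.6 and 696.1. The limit of 50 is on the mean over both groups, so it does not exclude low tubule signals. The size and rank of these 4 fold changes thus rest in part on such signals, and their values with signals under 50 set to 50 are not given here.

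With the same limit on the mean signal, egl, kel, hfp and chic had the highest log2 fold changes. egl, whose protein binds localized mRNAs together with BicD, had 205.2, 176.5, 220.1, 174.7 and 211.9 in tubule, against 123.5, 126.4, 128.3, 143.7 and 152.2 in whole flies. Every tubule array lay above every whole fly array, with a log2 fold change of 0.55 ± 0.12 (SE, limma, adjusted p = 0.0051), though with RpL32 held constant egl was not called higher. kel, which encodes a ring canal protein, was at 0.35 ± 0.16, hfp, a splicing regulator gene, at 0.01 ± 0.13, and chic, the profilin gene, at -0.03 ± 0.11, and none of the 3 was called (SE, limma). yl, the gene for the receptor that takes yolk proteins into the oocyte, was named after its values were seen. It had 100.1, 48.3, 37.6, 112.5 and 48.1 in tubule, against 410.8, 598.9, 473.2, 698.2 and 633.8 in whole flies, and a log2 fold change of -3.14 ± 0.26 (SE, limma, adjusted p = 2.8e-05).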

How the data were processed

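Malpighian tubules and whole flies were compared in 5 matched pairs of Affymetrix Drosophila genome arrays. The authors deposited signal intensity values made with MAS 5.0, which subtracts background, summarises perfect match and mismatch probes per probe set and scales each array linearly; the mean of each array after trimming lay at 100.0, and no further normalization was applied. The first tubule array failed the study's quality control, and its pair was discarded before deposit. Detection calls were not used here, and low signals may be background. Of 14010 rows, 44 were array controls and 13966 were tested, of which 12443 had 1 gene in the platform annotation, 327 several and 1196 none, and 12394 were matched to the RefSeq gene table for current symbols. The member vas was found by symbol only.

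The fit was made on log2 signals by limma 3.58.1 under R 4.3.3 (lmFit, then eBayes with a trend; pairs entered as blocks), with Benjamini-Hochberg adjustment over all 13966 probe sets and calls at an adjusted p under 0.05. Ratios are the mean and SD of the 5 within-pair ratios. The pairing rests on the study's methods, which match tubules and flies of 1 culture. Deviations of same-numbered arrays from their group means correlated at 0.0028, 0.085, -0.0894, -0.006 and 0.0914 in pairs 2 to 6 (6125 probe sets whose mean signal reached 50), so the signals themselves do not show it. The p-values rest on the spread of the tubule to whole fly differences between the 5 pairs, moderated over probe sets. The number of pairs limits the precision. Each array is a pool of many animals, so the spread between animals was not measured. The fit was also run on simulated data, with the outcome not given here.

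The genes and the 7 lists of other genes and tissue markers were chosen with earlier results of these data known. All measured genes are given. Values per array are printed, in each role, for the gene with the highest mean whole fly signal, for the extremes of each class, for genes called higher or not called, and for genes with an array past the limit of Dixon's test. Of the other eggshell and ovary lists, the 4 highest and 4 lowest log2 fold changes with a mean signal of at least 50 are named. Alternatives were no block, quantile normalization, RpL32 held constant, a floor of 50, 16 added to each signal, no trend and a t-test. Others were only probe sets with a mean of at least 50, the probe set of lowest mean, and each pair left out. The study applied its t-test, at p under 0.01, to values from other software (dChip), with filters on fold change and mean difference. Here the t-test was run on log2 MAS 5.0 signals without those filters. Leaving out pairs 2 and 5 together was added after seeing the data.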

Additional observations from a re-analysis of the deposited data

Results flagged for a closer look

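Within the groups of 5 arrays, the 36 egg genes in tubule and in whole fly gave 72 tests. In 12 of the 72, the highest or lowest log2 signal lay apart from the rest by more than 0.71 of the group's range. For independent, normally distributed values, chance gives this in about 1 in 20. The genes share the same arrays, so the tests are not independent. The share of all probe sets with any such array was not computed. In 8 of the 12 the array was whole fly array 2, as the lowest. The gap was 0.889 of the range for Vm26Aa, 0.767 for Vm32E, 0.876 for Vm34Ca, 0.91 for dec, 0.851 for Fcp3C, 0.744 for Cp15, 0.748 for Cp18 and 0.776 for exu. 7 of these are genes of the eggshell and its follicle cells, and the other, exu, acts in the germline. Among all probe sets with a whole fly mean of at least 50, 2.15% had whole fly array 2 low past the same limit.

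The other 4 were tubule arrays. Cp15 was high in array 5, with a signal of 1159.2 and a gap of 0.957 of the range, and otu was high in the same array, with 30.6 and a gap of 0.826. Cp36 was low in tubule array 5, with 13.6 and a gap of 0.763. Cp16 was high in tubule array 4, with 67.2 and a gap of 0.839.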

How the results depend on the processing

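Without the replicate block, that is without the pairing, 34 genes were called lower and 1 higher, as with it, and no call among the 36 changed; 46 of the other eggshell and ovary genes were lower, against 47 with the block. Leaving out each pair in turn gave 34 lower and 1 higher each time, with medians of -5.99 to -4.82 for the yolk and eggshell genes and -4.32 to -3.91 for the germline genes, and 44 to 47 other genes lower. The methods' t-test, no trend and 16 added to each signal changed no call among the 36.

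The scaling shifts all values: the median log2 fold change of all probe sets was -0.32 as deposited, 0.18 under quantile normalization and -0.66 when RpL32 was held constant, and in that order 31.6%, 54.6% and 18.4% of calls were higher in tubule. Under quantile normalization BicD turned to 0.19 (limma, adjusted p = 0.23), grk was no longer called (-0.50, adjusted p = 0.19) and 4 of the other eggshell and ovary genes were higher; with RpL32 held constant BicD was called lower (-0.48, adjusted p = 0.013) and 0 of the other genes were higher, where 1 was higher as deposited. The cause was not tested.

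Low signals limit the germline fold changes. With signals under 50 set to 50 the germline median was -1.39 and grk, bam and ovo were no longer called (0.00, -0.06 and -0.11), which follows from their signals lying mostly under that floor; 31 of the other genes were lower. With 16 added the germline median was -2.32. The number of the 36 lower by at least 10-fold was 28 as deposited, 14 with the floor, 19 with 16 added and 24 under quantile normalization. Testing only probe sets with a mean of at least 50 left 31 of the 36 genes and gave 28 of the other genes lower, fewer being tested. By the probe set of lowest mean, ovo turned to 0.88 (adjusted p = 0.20) and gus was not called (-0.24, adjusted p = 0.45); the cause was not tested.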

Other observations

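Over the whole array, 61 probe sets with a whole fly mean of at least 50 had whole fly array 2 at or under 1/2 of the lowest other whole fly array, and 11 of the 61 (18.0%) belong to the 36 genes. The genes in this paragraph were chosen after their values were seen. Muc12Ea, a mucin gene, had 182.5 in array 2 and 2474.9 to 4089.7 in the other 4, and Mur2B, a mucin-related gene, had 10.4 and 129.6 to 158.6. Vm26Ac, a further vitelline membrane gene, had 11.8 in array 2 and 65.1 to 81.2 in the others, and yellow-g had 199.1 and 420.5 to 780.9. retinin, a gene of the corneal lens, had 34.7 in array 2 and 136.0 to 250.6 in the others. Jon44E, a midgut digestive enzyme gene, had 100.8 and 201.7 to 320.2. The pattern thus also held genes of tissues other than the ovary. Of the lists of other genes, the 61 held 1 eggshell and yolk uptake gene, 2 midgut digestive enzyme genes and 0 ovary and germline genes.

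Tubule arrays 2 and 5 were at least 2-fold above the other 3 in 92 probe sets with a whole fly mean of at least 50, of which 12 (13.0%) belong to the 36 genes, and these 12 are 36.4% of the 33 such genes. A probe set with no single annotated gene followed the vitelline membrane genes in both respects, with 896.7, 58.6, 49.4, 800.8 and 60.2 in tubule arrays 2 to 6, against 1655.9, 4499.9, 3952.7, 4444.3 and 4004.8 in the whole fly arrays. The gene it measures is not named here.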
